A study of Mus musculus with 9 samples.

Results

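AP-1 is a transcription factor built from dimers of FOS, JUN and related proteins, and the genes examined here are its Fos family subunits Fos, Fosb, Fosl1 and Fosl2, its Jun family subunits Jun, Junb and Jund, its relative Atf3, and the immediate early genes Egr1 and Ier2. These 10 genes were found by symbol among the 48795 genes of the deposited table, and all 10 passed the filter on low values, as did 12741 genes in all. They were measured by RNA-seq in colon organoids, cultures of epithelium grown from mouse colon crypts, of wild type (WT) mice and of mice deficient in AHR, the aryl hydrocarbon receptor (called AHR KO). Per the methods of the study, AHR KO mice were Ahr fl/fl with Cre under the Villin promoter, which is active in gut epithelium, and WT mice were littermates, all on C57BL/6. All organoids were kept in WENR, a stem cell medium with Wnt3a, EGF, Noggin and R-spondin 1 that per the methods also held SB202190 (an inhibitor of the kinase p38) and an ALK5 inhibitor, and all were treated for 4 h. There were 2 libraries of WT with the solvent DMSO (replicates 2 and 3), 3 of WT with 5 nM FICZ, a high affinity AHR ligand (replicates 1, 2 and 3), 2 of AHR KO with DMSO (replicates 1 and 3) and 2 of AHR KO with 5 nM FICZ (replicates 1 and 3). The methods call the replicates biological, and the sources used here do not say which mice they came from, nor the age of the mice.

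Immediate early genes are those that a cell transcribes within minutes of a growth factor or stress signal without making new protein first. In the textbook scheme, EGF receptor signalling through RAS and ERK reaches the Fos and Egr1 promoters through SRF and its ETS partners, and JNK and ERK raise the activity of JUN proteins, which then act on the Jun promoter itself. FOS proteins need a JUN partner to bind DNA, while JUN proteins can also pair with each other. In gut epithelium AP-1 is known from proliferation, wound repair and tumours. AHR is a ligand-activated factor whose DNA sites hold the core GCGTG.

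The summed signal of a library lay between 23177058 and 25033827 normalised counts, and no 1 gene took more than 1.71% of a library. The epithelial markers Epcam, Cdh1, Krt8, Krt18, Vil1 and Cdx2 summed to between 211558 and 234236 normalised counts per library. Single markers moved within that sum: Epcam was lower in AHR KO than in WT, at -0.43 with DMSO and -0.46 with FICZ on the log2 scale, as was the intestinal factor Cdx2 (-0.43 and -1.08), which was higher with FICZ in WT (0.80). Krt18 was higher in AHR KO with FICZ (0.38), and the part of these moves in the results was not tested. All 6 fibroblast, 6 immune and 3 endothelial markers were under the filter, with sums of at most 4.6, 2.2 and 5.3 in any library, and Lum, Ptprc, Lyz2 and Adgre1 were at 0 in all 9. The count of the targeted gene was not lower with the label: Ahr read 782.7 to 858.0 in the 5 WT libraries and 1346 to 1443 in the 4 labelled AHR KO, and a count over a whole gene may not show a deletion of part of it, while its target Cyp1a1 read 6987 to 7958 in WT FICZ and 100.3 and 138.8 in AHR KO FICZ. Of the 5 AHR targets looked at, Cyp1a1, Cyp1b1 and Ahrr still rose with FICZ within the libraries labelled AHR KO, and Tiparp (0.13, adjusted p = 0.353) and Nqo1 (0.20, adjusted p = 0.115) were not called. Cyp1a1 read 0.0 and 2.9 in AHR KO DMSO, and Cyp1b1 read 34.5 and 25.4 there and 136.6 and 222.0 in AHR KO FICZ, a log2 change of 2.52 ± 0.24 (limma adjusted p = 0.00112). In WT the change of Cyp1b1 was 2.90 ± 0.22 (adjusted p = 6e-05), and its level in AHR KO was lower than in WT by a log2 difference of -5.44 with DMSO and -5.82 with FICZ. Changes with FICZ in AHR KO are thus not changes in the absence of any response to the ligand. AHR KO therefore stands for libraries labelled so, and each direction between genotypes rests on those labels. In such bulk samples, fewer cells that express a gene and less of its RNA per cell cannot be told apart.

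Promoters are shown for the members that passed a test in some comparison and whose RefSeq start lies within 30 bases of the GENCODE gene start, which were Fos, Jun and Junb. Each run holds the 250 bases before the start, 5′ to 3′ on the strand of the gene (RefSeq, GRCm38.p6), with matches to 3 short motifs in capitals. The motif TGACG is the core of the cAMP response element, which CREB and ATF proteins bind. GCGTG is the AHR core and reads in reverse complement where it lies on the opposite strand. A TATA box was searched for as TATAAA.
Fos, chr12:85473640-85473889, plus strand: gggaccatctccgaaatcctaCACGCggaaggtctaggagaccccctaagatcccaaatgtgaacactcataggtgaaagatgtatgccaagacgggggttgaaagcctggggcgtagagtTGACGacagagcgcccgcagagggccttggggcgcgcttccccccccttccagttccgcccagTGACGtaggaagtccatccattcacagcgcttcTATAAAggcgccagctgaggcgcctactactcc
Jun, chr4:95052223-95052472, minus strand: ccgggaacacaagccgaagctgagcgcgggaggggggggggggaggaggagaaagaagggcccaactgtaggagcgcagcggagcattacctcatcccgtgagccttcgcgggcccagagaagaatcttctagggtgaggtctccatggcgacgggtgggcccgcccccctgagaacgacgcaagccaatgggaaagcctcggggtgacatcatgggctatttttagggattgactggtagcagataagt
Junb, chr8:84978749-84978998, minus strand: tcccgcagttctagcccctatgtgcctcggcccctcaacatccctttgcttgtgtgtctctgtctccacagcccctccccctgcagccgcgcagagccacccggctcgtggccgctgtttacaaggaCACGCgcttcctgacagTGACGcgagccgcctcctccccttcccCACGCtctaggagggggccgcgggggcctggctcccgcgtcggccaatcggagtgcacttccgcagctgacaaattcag

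Of the 10 members, 7 had a window in the RefSeq table (Fos, Fosb, Fosl2, Jun, Junb, Jund and Atf3), and both strands were searched. TGACG was found in 4 of the 7 windows and in 17.8% of 32851 promoter windows of the same length. The Fos window held it at 129 to 125 and at 66 to 62 bases before the start, and Junb at 106 to 102. GCGTG was found in 3 of the 7 windows (Fos, Junb and Atf3) and in 28.2% of all windows, and Junb held 2 copies, at 123 to 119 and 79 to 75 bases before the start. TATAAA was found in the Fos window alone among the 7, at 33 to 28 bases before the start, and in 12.4% of all windows. The CArG box to which SRF binds, the full element TGACGTCA and the AP-1 motif TGANTCA were in none of the 7, and in 1.47%, 1.55% and 6.75% of all windows. Only exact matches within 250 bases were searched for and Egr1 had no window, so sites farther upstream or with other letters would be missed. No 2 matches to different motifs overlapped in the members. The GC content of the 7 windows was 58.4 to 68.8%, except for Jund with 47.6%, against a median of 52.4% over all windows. The shares over all windows are not matched for GC content. A match to letters is no sign of binding. The RefSeq starts that the windows of Jund, Fosl2 and Atf3 precede lie 1210, 671 and 34706 bases from the GENCODE gene start.

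Fos (ENSMUSG00000021250, chromosome 12, 85473890 to 85477273 on GRCm38, plus strand, 4 exons) is the founding member of the Fos family. In WT DMSO it read 6379 (replicate 2) and 5678 (replicate 3) normalised counts, in WT FICZ 7578, 6894 and 6946 (replicates 1 to 3), in AHR KO DMSO 5858 (replicate 1) and 5619 (replicate 3), and in AHR KO FICZ 5686 (replicate 1) and 5636 (replicate 3). The 3 WT FICZ libraries were above all the others, and the 2 AHR KO groups overlapped. Values of the other genes are given in the same order of groups and replicates.

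Fosb (ENSMUSG00000003545, chromosome 7, 19302696 to 19310051, minus strand) encodes a FOS protein that also has a shortened, stable form in brain. It read 308.2 and 281.8 in WT DMSO, 698.5, 370.1 and 416.9 in WT FICZ, 336.3 and 368.6 in AHR KO DMSO, and 296.5 and 417.8 in AHR KO FICZ. WT FICZ replicate 1 stood above the other 8 libraries, and both AHR KO groups overlapped with each other. Fosl1 (ENSMUSG00000024912, chromosome 19, 5447547 to 5455946, plus strand) encodes FRA-1, which lacks the transactivation domain of FOS and is known from migrating and transformed epithelium. Fosl1 read 334.9 and 278.5 in WT DMSO, 269.2, 233.0 and 233.2 in WT FICZ, 207.1 and 215.9 in AHR KO DMSO, and 218.3 and 238.5 in AHR KO FICZ. Both WT DMSO libraries were above all 7 others. Fosl2 (ENSMUSG00000029135, chromosome 5, 32135801 to 32157842, plus strand) encodes FRA-2, of like build. Fosl2 read 3300 and 3195 in WT DMSO, 3406, 3483 and 3467 in WT FICZ, 3392 and 3331 in AHR KO DMSO, and 4220 and 3950 in AHR KO FICZ. Here the 2 AHR KO FICZ libraries stood above the rest, which spanned 3195 to 3483.

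Jun (ENSMUSG00000052684, chromosome 4, 95049034 to 95052222, minus strand, 1 exon) encodes the JUN subunit that most strongly activates AP-1 sites with FOS. It read 1640 and 1452 in WT DMSO, 1953, 1602 and 1829 in WT FICZ, 1100 and 1012 in AHR KO DMSO, and 1310 and 1227 in AHR KO FICZ. All 4 AHR KO libraries were below all 5 WT libraries, and within WT the DMSO and FICZ libraries overlapped. Junb (ENSMUSG00000052837, chromosome 8, 84974484 to 84978718, minus strand, 1 exon) encodes a JUN protein that can restrain JUN in some cells. Junb read 3354 and 3279 in WT DMSO, 5175, 4939 and 5091 in WT FICZ, 2837 and 2932 in AHR KO DMSO, and 4589 and 4669 in AHR KO FICZ. The 5 FICZ libraries were above the 4 DMSO libraries, and within each treatment both AHR KO libraries were below WT. Jund (ENSMUSG00000071076, chromosome 8, 70698949 to 70700616, plus strand, 1 exon) encodes the JUN protein known for steady expression in resting cells. It read 3418 and 3296 in WT DMSO, 5781, 4911 and 5756 in WT FICZ, 3295 and 3568 in AHR KO DMSO, and 5297 and 5306 in AHR KO FICZ. Again the FICZ libraries were above the DMSO libraries, with no separation of the genotypes.

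Atf3 (ENSMUSG00000026628, chromosome 1, 191170296 to 191218039, minus strand) encodes a stress-induced factor of the CREB and ATF family that pairs with JUN proteins. It read 167.9 and 126.8 in WT DMSO, 147.9, 116.4 and 137.1 in WT FICZ, 203.5 and 186.6 in AHR KO DMSO, and 196.6 and 112.6 in AHR KO FICZ. The 2 AHR KO FICZ libraries spanned most of the range of the gene. Egr1 (ENSMUSG00000038418, chromosome 18, 34859823 to 34864984, plus strand) encodes a zinc finger factor that ERK signalling induces. Egr1 read 11501 and 13240 in WT DMSO, 14200, 11516 and 13481 in WT FICZ, 10603 and 10913 in AHR KO DMSO, and 12249 and 12514 in AHR KO FICZ. The 2 AHR KO DMSO libraries were the lowest, and the other groups overlapped. Ier2 (ENSMUSG00000053560, chromosome 8, 84661331 to 84662852, minus strand, 1 exon) encodes a nuclear protein of the immediate early response. Ier2 read 1752 and 1796 in WT DMSO, 2107, 1841 and 2040 in WT FICZ, 1424 and 1575 in AHR KO DMSO, and 1868 and 1954 in AHR KO FICZ, so that AHR KO DMSO was again lowest.

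**Figure D1:**
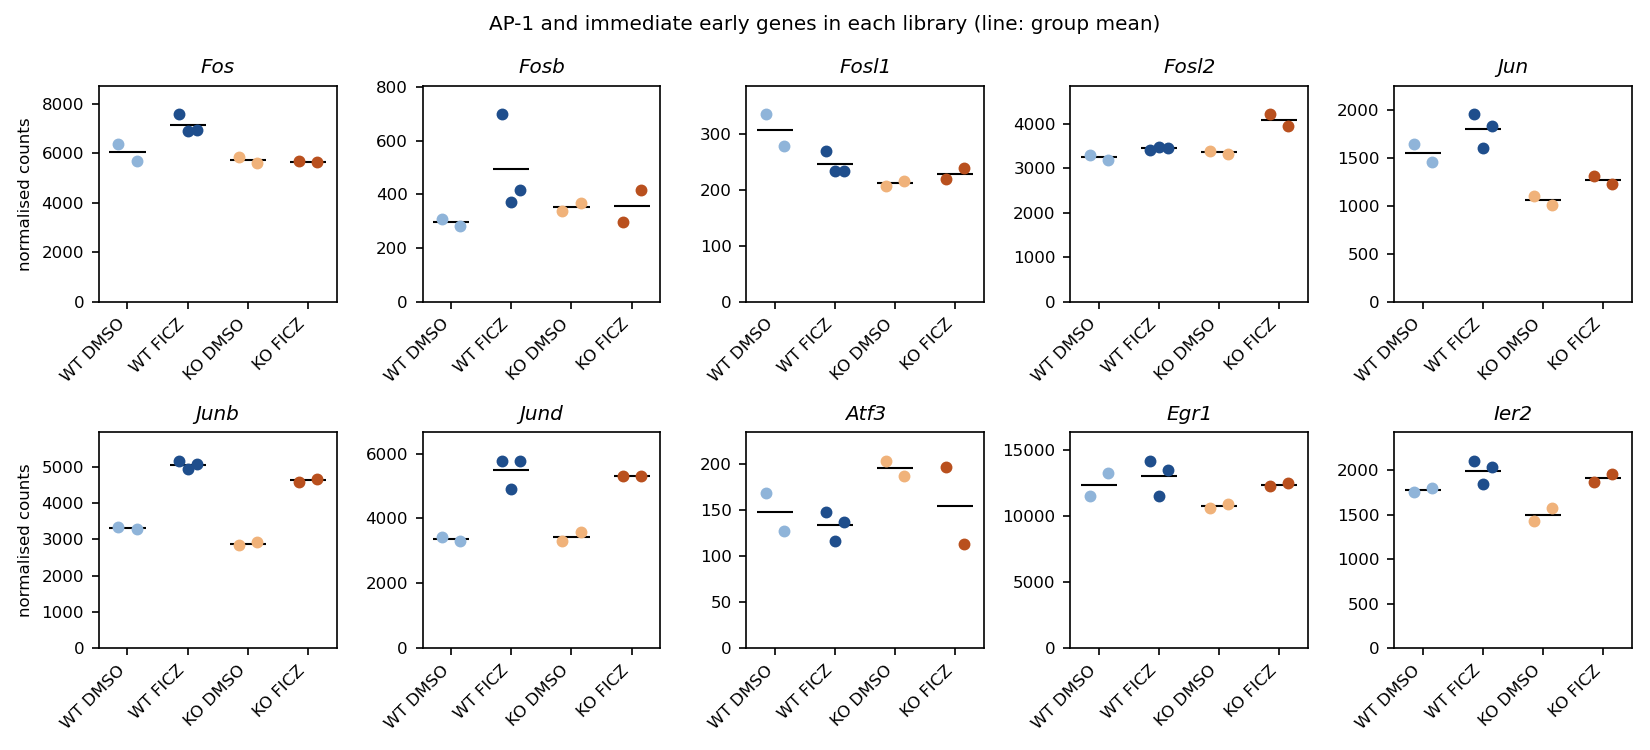
Normalised counts (y axis, from 0) of the 10 genes in each of the 9 libraries, by group (x axis), where a point is a library and a line the mean of its group. Junb and Jund are higher in the 5 FICZ libraries than in the 4 DMSO libraries, and Jun is lower in the 4 AHR KO libraries (1012 to 1310) than in the 5 WT libraries (1452 to 1953).

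For levels to be compared between genes, the counts were divided by the length of the merged exons. In WT DMSO, Egr1 led with 2759 ± 274 normalised counts per kb (SD, n = 2), followed by Fos with 2563 ± 211, Jund with 2013 ± 51.6, Junb with 1441 ± 23.1 and Ier2 with 1166 ± 20.3. Jun stood at 485 ± 41.7, Fosl2 at 336 ± 7.68, Fosl1 at 151 ± 19.6, Atf3 at 68.4 ± 13.5 and Fosb at 47.2 ± 2.99. The libraries of Egr1 and Fos overlapped, and those of the other neighbours in this order did not. Against 11805 protein-coding genes per length, Egr1 and Fos were at the 97.1 and 96.8 percentile, Jun at 79.0, Fosl1 at 49.9 and Fosb at 24.5. Transcripts of Fos, Egr1, Jund, Junb and Ier2 were thus abundant in organoids that had received solvent only. With the longest transcript in place of merged exons, Fos came first with 2860 per kb, Fosl2 passed Jun with 497 against 485, and Fosb passed Atf3 with 78.0 against 74.3. In WT FICZ, Jund led per merged exon length with 3287 ± 297 (n = 3), above Fos with 3035 ± 162 and Egr1 with 2914 ± 310, and the libraries of these 3 overlapped.

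Within the Fos family, Fos made up 82.8% ± 0.364 of the summed level per kb in WT DMSO, 84.5% ± 0.11 in WT FICZ, 82.8% ± 0.483 in AHR KO DMSO and 80.3% ± 0.127 in AHR KO FICZ. Fosl2 made up 10.9% in WT DMSO and 14.1% in AHR KO FICZ, and Fosl1 and Fosb together made up the small remainder. The Jun family was more even. Jund took 51.1% ± 0.20 and Junb 36.6% ± 0.495 of it in WT DMSO, and Jun took 12.3% ± 0.695 in WT DMSO and 7.12% ± 0.339 in AHR KO FICZ. The summed level of the Jun family was 3939 ± 116 per kb in WT DMSO and 6052 ± 401 in WT FICZ, and 3642 ± 125 and 5588 ± 10.2 in AHR KO DMSO and FICZ.

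**Figure D2:**
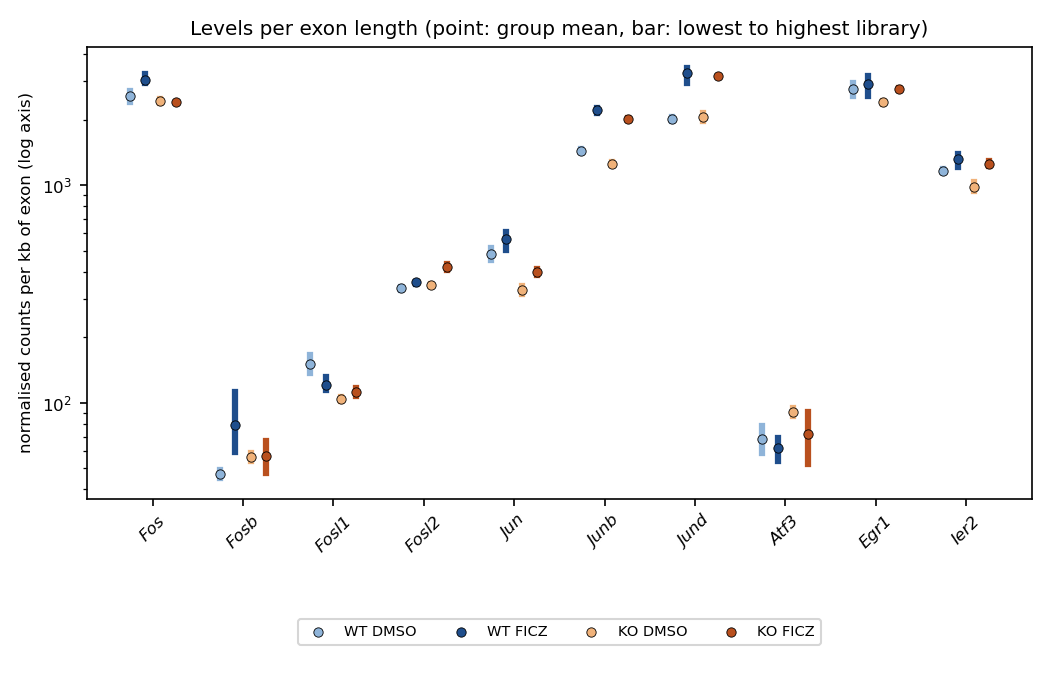
Normalised counts per kb of merged exon (y axis, log scale) of the 10 genes (x axis) in the 4 groups, where a point is the group mean and a bar runs from the lowest to the highest library. Fos, Egr1, Jund, Junb and Ier2 have means of 985 or more in every group, while no library of Fosb or Atf3 is above 112.

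The effect of FICZ in WT organoids was examined first. Junb, Jund and Fos rose with FICZ and 7 members did not pass the test. On the log2(value + 1) scale used throughout, Jund was higher by 0.70 ± 0.07 (SE), a fold of 1.63 (limma adjusted p = 0.000261), Junb by 0.61 ± 0.05, a fold of 1.53 (adjusted p = 5.42e-05), and Fos by 0.25 ± 0.06, a fold of 1.19 (adjusted p = 0.0152). Of all genes tested, 15.1% were called higher and 15.7% lower in this comparison, and the median change was 0.19 over the 10 members against -0.01 over all genes.

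Of the members not called in WT, Fosb had the highest value, 0.69 with a 95% interval of 0.16 to 1.22 (adjusted p = 0.0504). It was 0.41 without WT FICZ replicate 1 (adjusted p = 0.0889) and 0.87 without WT FICZ replicate 2 (adjusted p = 0.0190). Fosl1 was at -0.32 (interval -0.59 to -0.05, adjusted p = 0.0689) and had the lowest value of the 10. It was -0.19 without WT DMSO replicate 2 (adjusted p = 0.416) and -0.45 without WT DMSO replicate 3 (adjusted p = 0.0593). Jun was at 0.21 (0.01 to 0.41), Ier2 at 0.17 (0.01 to 0.33), Fosl2 at 0.09 (-0.02 to 0.20), Egr1 at 0.08 (-0.12 to 0.27) and Atf3 at -0.13 (-0.63 to 0.37). The call of Fos was lost without WT DMSO replicate 3, where its change was 0.16 (adjusted p = 0.156). Without WT FICZ replicate 2 there were 6 members called higher, with Fosb, Jun (0.29, adjusted p = 0.0203) and Ier2 (0.22, adjusted p = 0.0241) added, and 4133 of all genes called against 3928 with every library.

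In AHR KO organoids, FICZ went with a rise of Junb, Jund, Ier2 and Fosl2. Junb was higher by 0.68 ± 0.05, a fold of 1.60 (adjusted p = 0.000474), and Jund by 0.63 ± 0.08, a fold of 1.55 (adjusted p = 0.0019). Ier2 was higher by 0.35 ± 0.08 (adjusted p = 0.0132) and Fosl2 by 0.28 ± 0.05 (adjusted p = 0.00725). All genes tested were called higher in 10.2% and lower in 9.48%, and the median was 0.23 over the members. Fos was at -0.02 with an interval of -0.17 to 0.13, and Fosb at 0.00 with -0.58 to 0.58. Jun was at 0.26 (0.04 to 0.48, adjusted p = 0.088), Egr1 at 0.20 (-0.01 to 0.42), Fosl1 at 0.11 (-0.18 to 0.40) and Atf3 at -0.39 (-0.94 to 0.17). Without AHR KO DMSO replicate 1 only Junb and Jund were called, with Fosl2 at 0.29 (adjusted p = 0.0566) and Ier2 at 0.28 (adjusted p = 0.124), while the calls over all genes went from 2509 to 420. Without AHR KO FICZ replicate 3 Ier2 was at 0.32 (adjusted p = 0.0740).

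Gene composition moved with the FICZ comparisons. The members are rich in G and C: their median GC content was 56.6% against 49.4% over 12704 genes tested, and Fosl1, Ier2, Junb and Jund (58.5, 60.9, 62.6 and 67.1%) lay in the highest of 10 equal bins of genes, which starts at 57.6%. The median change with FICZ of that bin was 0.32 (WT) and 0.35 (AHR KO), and 45% and 39.7% of its genes were called higher, while the lowest bin had medians of -0.20 and -0.22. In single libraries the highest bin deviated from the mean of each gene over all libraries by a median of -0.23 to -0.16 with DMSO and 0.09 to 0.19 with FICZ.

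When the trend on GC content and transcript length was taken out of each library, Jund was at -0.03 in WT (interval -0.12 to 0.06, adjusted p = 0.656) and at -0.07 in AHR KO (-0.17 to 0.03, adjusted p = 0.414). Junb was at 0.13 in WT (0.03 to 0.23, adjusted p = 0.0707) and at 0.21 in AHR KO (0.10 to 0.32), where it was still called (adjusted p = 0.0392). Fos was at 0.19 in WT (0.05 to 0.33, adjusted p = 0.0574), and Fosl2 at 0.16 in AHR KO (0.02 to 0.29, adjusted p = 0.166). Ier2 turned to -0.22 in WT, where it was called lower (adjusted p = 0.017), and to -0.03 in AHR KO. Fosl1 was called lower in WT with -0.60 (-0.85 to -0.35, adjusted p = 0.0063). In this fit 8.04% of all genes were called higher and 10.1% lower in WT, and 1.89% and 3.56% in AHR KO. Junb and Jund as deposited lay above the upper quartile of the highest GC bin, which was 0.53 in WT and 0.51 in AHR KO. That bin had a median GC content of 59.4%, below the 62.6% of Junb and the 67.1% of Jund, so its genes are not matched to them. Junb stands at the 98.9 percentile of GC content. Jund stands at the 99.8 percentile of GC content, near the edge of the range over which the trend was fitted, and the part of composition in the rise of both genes was not tested.

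**Figure D3:**
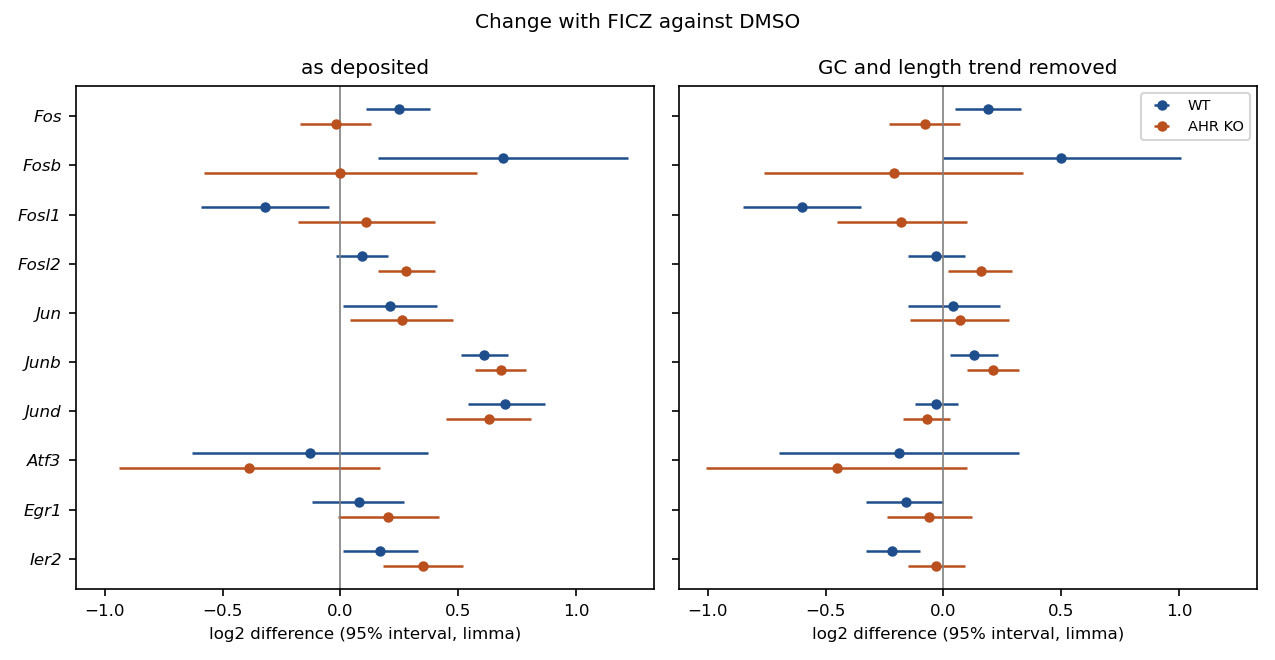
Log2 difference of FICZ from DMSO (x axis, points with 95% intervals from limma) for the 10 genes (y axis) in WT and AHR KO, from the deposited values on the left and with the GC and length trend removed on the right. Jund moves from 0.70 to -0.03 in WT and from 0.63 to -0.07 in AHR KO, and Fosl1 in WT from -0.32 to -0.60.

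**Figure D4:**
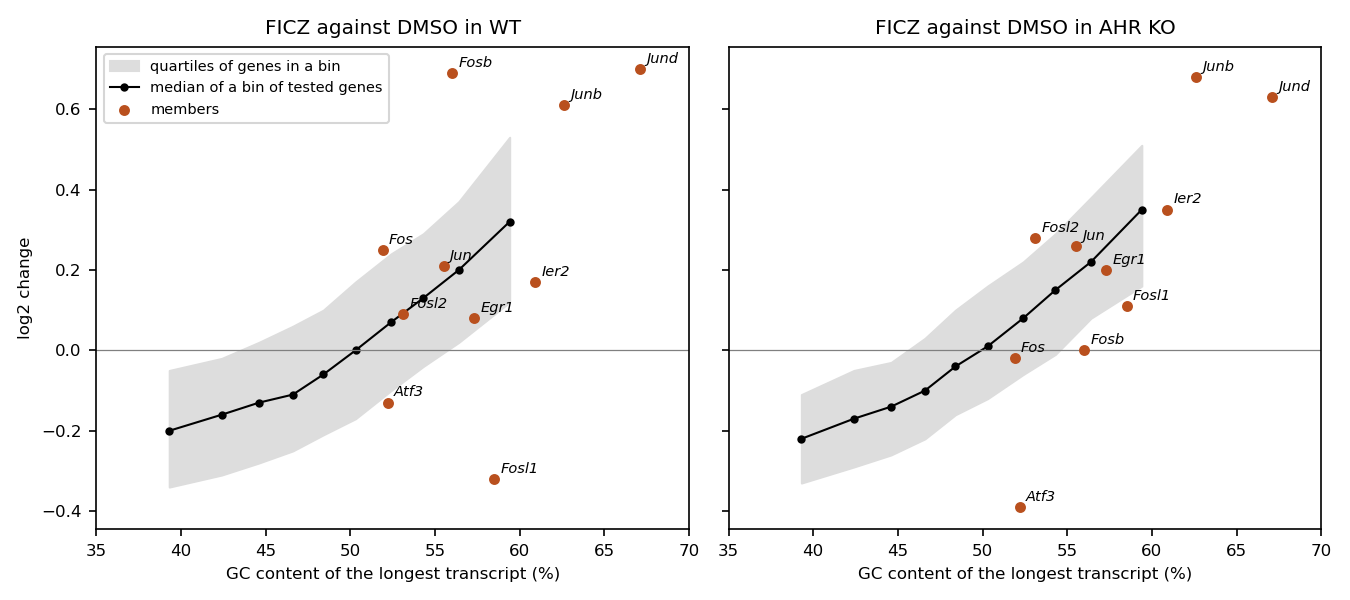
Log2 change with FICZ (y axis) against the GC content of the longest transcript (x axis, %), in WT on the left and AHR KO on the right, where black points are medians of 10 equal bins of the tested genes, the band spans their quartiles and orange points are the 10 genes. The medians run from -0.20 to 0.32 in WT and from -0.22 to 0.35 in AHR KO, and Junb and Jund lie at the upper right.

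Whether the response to FICZ depended on genotype was tested by the interaction, in which the change of AHR KO is subtracted from the change of WT. None of the 10 members was called by limma, 3 had an unadjusted p under 0.05, and 0.447% of all genes were called. Fos had an interaction of 0.26 ± 0.09 (adjusted p = 0.487), Fosl2 of -0.19 ± 0.07 (adjusted p = 0.533) and Fosl1 of -0.43 ± 0.18 (adjusted p = 0.63). For Junb the interval of the difference was -0.22 to 0.08 and for Jund -0.17 to 0.32. For Fosb it was -0.09 to 1.47, so that a difference between the genotypes of more than 2-fold cannot be told from none. Ier2 (-0.42 to 0.05), Egr1 (-0.41 to 0.16), Jun (-0.35 to 0.25) and Atf3 (adjusted p = 0.949) were not called either. The same test did call, among others, the AHR targets Tiparp (1.71 ± 0.12, adjusted p = 0.000155) and Nqo1 (1.41 ± 0.11, adjusted p = 0.000257).

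Between the genotypes with DMSO, Jun, Fosl1 and Junb were lower in AHR KO and no member was called higher. Jun was lower by 0.55 on the log2 scale, at -0.55 ± 0.10, a fold of 0.68 (adjusted p = 0.00754), Fosl1 was at -0.53 ± 0.13, a fold of 0.69 (adjusted p = 0.0336), and Junb at -0.20 ± 0.05, a fold of 0.87 (adjusted p = 0.0339). Over all genes tested, 4.21% were called higher and 4.83% lower, and the median of the 10 members was -0.13. Ier2 was at -0.24 (interval -0.42 to -0.07, adjusted p = 0.0815), Egr1 at -0.20 (-0.41 to 0.01), Fos at -0.07 (-0.22 to 0.08) and Jund at 0.03 (-0.15 to 0.21), while Atf3 was at 0.42 (-0.14 to 0.97), Fosb at 0.26 (-0.32 to 0.84) and Fosl2 at 0.05 (-0.07 to 0.17). Leaving out a DMSO library left a group of 1, which limma then takes to vary like the other groups, and the calls over all genes fell from 1153 to between 389 and 581. Jun, Fosl1 and Junb stayed lower in each of these fits while calls were lost. Jun was at -0.46 without WT DMSO replicate 2 (adjusted p = 0.0682) and at -0.49 without AHR KO DMSO replicate 3 (adjusted p = 0.0823). Fosl1 was not called without WT DMSO replicate 2 (-0.40, adjusted p = 0.221), AHR KO DMSO replicate 1 (-0.50, adjusted p = 0.159) or AHR KO DMSO replicate 3 (-0.56, adjusted p = 0.14), and Junb was not called without any 1 of the 4 DMSO libraries (adjusted p = 0.114 to 0.189), with a change of -0.23 to -0.18.

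With FICZ, Jun and Fos were lower in AHR KO than in WT and Fosl2 was higher. Jun was at -0.50 ± 0.09, a fold of 0.71 (adjusted p = 0.00368), Fos at -0.33 ± 0.06, a fold of 0.79 (adjusted p = 0.0044), and Fosl2 at 0.24 ± 0.05, a fold of 1.18 (adjusted p = 0.00607). Of all genes tested 9.48% were called higher and 10.5% lower, and the median of the members was -0.09. Jun and Fos stayed past the threshold under each of the 15 alternatives run for this comparison, with changes between -0.58 and -0.43 for Jun and between -0.36 and -0.29 for Fos. Fosl2 did so under 14, the exception being without AHR KO FICZ replicate 1 (0.19, adjusted p = 0.0504). Junb was at -0.13 (-0.23 to -0.03, adjusted p = 0.0732), Fosb at -0.43 (-0.96 to 0.09), Fosl1 at -0.10 (-0.37 to 0.17), Atf3 at 0.16 (-0.34 to 0.66), Egr1 at -0.07 (-0.27 to 0.12), Ier2 at -0.06 (-0.22 to 0.10) and Jund at -0.04 (-0.21 to 0.12). In the genotype comparisons the highest bin of genes by GC content had medians of -0.04 with DMSO and -0.02 with FICZ, and with the trend removed Jun was at -0.54 and -0.51. With DMSO Junb then lost its call (-0.17, adjusted p = 0.0586) and Ier2 was called lower (-0.22, adjusted p = 0.0353), so that Fosl1, Jun and Ier2 were the members called. Genes on the opposite strand overlap Jun (Junos), Junb (Prdx2), Jund (Gm11175), Fosl1 (Ccdc85b) and Atf3 (Gm24748). Whether the counting used strand is not given in the sources used here.

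**Figure D5:**
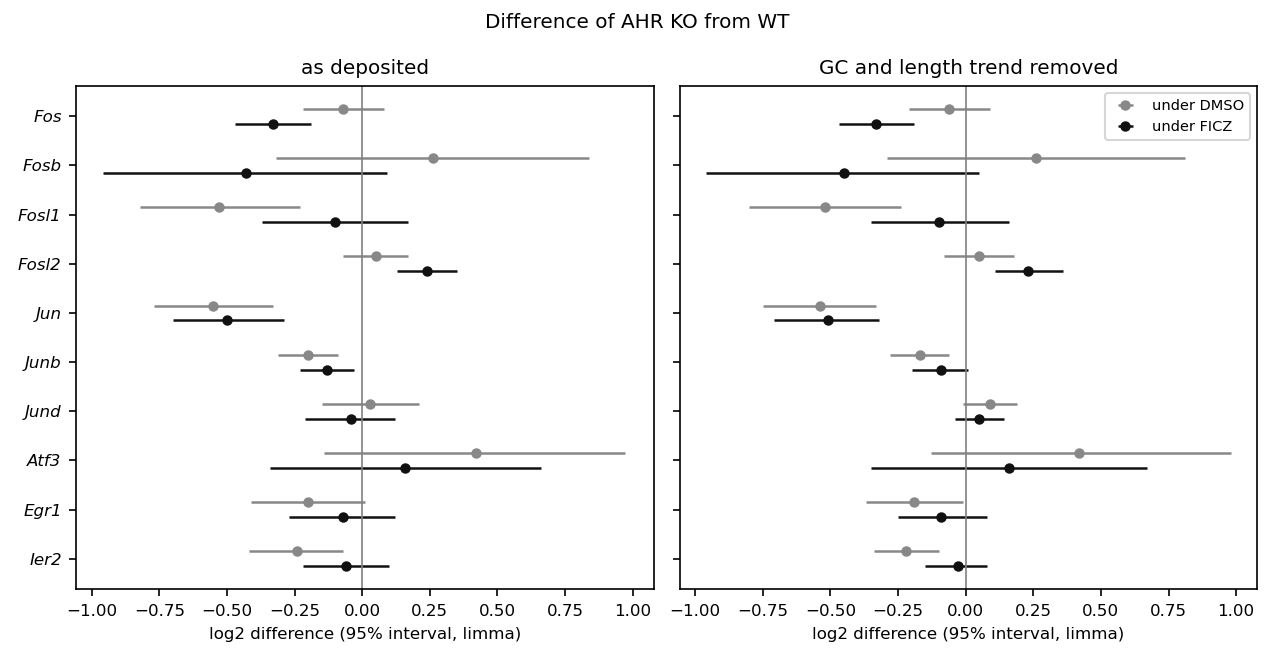
Log2 difference of AHR KO from WT (x axis, points with 95% intervals from limma) for the 10 genes (y axis) with DMSO and with FICZ, from the deposited values on the left and with the GC and length trend removed on the right. Jun is at -0.55 with DMSO and -0.50 with FICZ, and hardly moves when the trend is removed (-0.54 and -0.51).

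Other immediate early genes gave a mixed picture with FICZ. Of a list of 31, 28 were tested, and Egr3, Egr4 and Nr4a3 were under the filter. In WT 10 were called higher, 3 lower and 15 were not called, with a median of 0.19, where 15.1% of all genes were called higher and 15.7% lower. Ier5l was higher by 0.81 (adjusted p = 0.0112) and Nr4a1, an orphan nuclear receptor, by 0.51 (adjusted p = 0.013, called in 12 of 17 alternatives). Dusp1, a phosphatase of p38, JNK and ERK, was higher by 0.48 (adjusted p = 0.0124, called in 14 of 17). Without WT DMSO replicate 3 the change of Dusp1 was 0.30. Ccn1, a matrix protein and YAP target, was at -0.70 (adjusted p = 0.000436), Klf6 at -0.44 (adjusted p = 0.00294) and Myc at -0.31 (adjusted p = 0.00525). The change of Klf6 lay between -0.60 and -0.27 over the 17 alternatives. With the GC and length trend removed 1 was called higher and 5 lower (8.04% and 10.1% of all genes), and Ier5l was at 0.25, Nr4a1 at 0.29 and Dusp1 at 0.37, none of them called. In AHR KO 7 were called higher and none lower (10.2% and 9.48% of all genes), led by Ier5l (0.85), Csrnp1 (0.66) and Nr4a1 (0.51, called in 10 of 16 alternatives), and with the trend removed limma called none (6 had an unadjusted p under 0.05).

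Ccn1 was the 1 gene of this list with a called interaction (-0.81 ± 0.13, adjusted p = 0.0222). The call was lost in 6 of 20 alternatives, 5 of which left out 1 library (WT DMSO replicate 2, AHR KO DMSO replicate 1 or 3, WT FICZ replicate 3 or AHR KO FICZ replicate 3), with an interaction between -0.91 and -0.72 in all 20 and an adjusted p of up to 0.159. It read 999.8 and 891.5 normalised counts in WT DMSO, 609.3, 590.6 and 540.9 in WT FICZ, 1476 and 1384 in AHR KO DMSO and 1443 and 1649 in AHR KO FICZ. The change was therefore seen in WT, with no overlap between DMSO and FICZ libraries, while the AHR KO libraries overlapped. Between the genotypes, 2 genes of the list were higher and 6 lower in AHR KO with DMSO (4.21% and 4.83% of all genes), and 6 higher and 5 lower with FICZ (9.48% and 10.5%). The counts of the lists that follow stand beside the same shares. Higher with DMSO were Ccn1 (0.60) and the antiproliferative gene Btg2 (0.36), and the lowest were Rhob (-0.49), Klf6 (-0.37) and Zfp36 (-0.33), which encodes a protein that speeds decay of AU-rich mRNAs. With FICZ the highest were Ccn1 (1.41), Ier5l (0.75) and Plk2 (0.49), and the lowest Klf2 (-0.99), Zfp36 (-0.47) and Klf4 (-0.41). Plk2 was at 0.29 without AHR KO FICZ replicate 3 (adjusted p = 0.177) and at 0.41 without WT FICZ replicate 3 (adjusted p = 0.0599).

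Among 14 dimer partners and relatives of AP-1, 10 were tested, and Batf, Batf3 and Mafa were among those under the filter. Batf2, which pairs with JUN proteins, was the 1 gene of this list called higher in WT with FICZ. Batf2 read 89.3 and 76.6 in WT DMSO, 205.3, 129.1 and 196.8 in WT FICZ, 40.8 and 40.7 in AHR KO DMSO and 54.7 and 50.4 in AHR KO FICZ. The 3 WT FICZ libraries were highest and the 4 AHR KO libraries lowest. Its change in WT was 1.06 ± 0.21, a fold of 2.08 (adjusted p = 0.00502), and 0.84 with the GC and length trend removed (adjusted p = 0.0199), or 0.73 with a replicate block added (adjusted p = 0.0816). Against WT, AHR KO had a fold of 0.50 with DMSO (adjusted p = 0.0257) and of 0.31 with FICZ (-1.70 ± 0.21, adjusted p = 0.000379). The call with DMSO held in 8 of 13 alternatives, with an adjusted p of up to 0.153, and was lost without any 1 of the 4 DMSO libraries. Atf2, a JUN partner activated by JNK and p38, was lower with FICZ in WT (-0.40, adjusted p = 0.000656) and in AHR KO (-0.41, adjusted p = 0.00245), and with the trend removed it was at -0.21 (adjusted p = 0.0284) and -0.22 (adjusted p = 0.0746).

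The kinases and factors upstream of the members were all tested (23 of 23). In WT with FICZ 3 were higher, namely the MAP kinase kinase Map2k2 (0.60), the RAF kinase Araf (0.41) and Rps6ka1 (0.16, called in 8 of 17 alternatives), and 5 lower, among them Rps6ka3 (-0.34) and Nras (-0.28). In AHR KO 3 were higher, among them Map2k2 (0.74) and Mrtfa (0.27, called in 10 of 16), and 1 was lower. With the trend removed Araf was the 1 gene called in WT (0.53, adjusted p = 0.00171), and Map2k2 (0.36, adjusted p = 0.0342) was among the 2 called in AHR KO. In AHR KO with DMSO, Rps6ka3 (-0.40), the ERK1 gene Mapk3 (-0.35) and Rps6ka1 (-0.30) were lower than in WT, and none was higher. Over all the lists named here 12 genes were called lower and 6 higher in this comparison. Fewer list genes, and fewer of all genes, were called in each fit that left out 1 DMSO library and so left a group of 1. No list gene was called lower without WT DMSO replicate 2, AHR KO DMSO replicate 1 or AHR KO DMSO replicate 3. Without WT DMSO replicate 3 there were calls in both directions. The genes named here as lower stayed below 0 in these fits, and without WT DMSO replicate 2 Klf6 went from -0.37 to -0.21 and Areg from -0.43 to -0.27. With FICZ 2 were higher, Elk3 (0.43) and Nras (0.27), and 4 lower, with Rps6ka3 at -0.36, Araf at -0.32 and Rps6ka1 at -0.30.

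Genes that report ERK output and feedback (11 of 11 tested) gave few calls. In WT with FICZ the ERK phosphatase Dusp4 was higher (0.40, adjusted p = 0.00714) and the RAS pathway inhibitor Spred1 lower (-0.26, adjusted p = 0.0136), and with the trend removed neither was called, while 3 other genes of the list were called lower. By limma none was called in AHR KO with FICZ (1 had an unadjusted p under 0.05), nor between the genotypes with DMSO (5 had one). With FICZ, Dusp5 (0.60, adjusted p = 0.0014) and Spred1 (0.25, adjusted p = 0.0223) were higher in AHR KO.

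Of 18 genes known as targets of AP-1, 14 were tested, and Mmp3, Mmp9, Mmp10 and Mmp13 were under the filter. In WT with FICZ 2 were higher, among them the urokinase receptor gene Plaur (0.34, adjusted p = 0.0184), and Vegfa (-0.52, adjusted p = 0.00915) and Hbegf (-0.20, adjusted p = 0.0341, called in 10 of 17 alternatives) were lower. In AHR KO with FICZ the cytokine gene Lif was called, at 0.42 (adjusted p = 0.0296). The call was lost in 6 of 16 alternatives, and the change was 0.23 without AHR KO FICZ replicate 3 (adjusted p = 0.172). With the trend removed Plaur was at 0.26 (adjusted p = 0.0809) and Lif at 0.31 (adjusted p = 0.135), and limma called no gene of the list in AHR KO (1 had an unadjusted p under 0.05). In WT that fit called 2 genes of the list higher and 2 lower (8.04% and 10.1% of all genes). Between the genotypes with DMSO, the epithelial protease Mmp7 (2.06 ± 0.15), Ccnd1 (0.60 ± 0.07) and Hbegf (0.25 ± 0.07, called in 9 of 14 alternatives) were higher in AHR KO and Areg was lower (-0.43 ± 0.11). With FICZ 7 were higher and 1 lower, with Mmp7 at 2.31, Timp1 at 1.58, the urokinase gene Plau at 1.28 and Areg at -0.80. The list had a median of 0.21 with DMSO and 0.27 with FICZ, against -0.01 and 0.00 over all genes, and the 10 members had medians of -0.13 and -0.09.

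Stress genes were looked at because Atf3, Jun and Egr1 also answer to stress. Of 10 integrated stress response genes, Ddit4 (0.56, adjusted p = 0.00284) and Sesn2 (0.40, adjusted p = 0.0136) were higher with FICZ in WT, and Ddit4 in AHR KO (0.36, adjusted p = 0.0453), a call that held in 9 of 16 alternatives and was lost without any 1 of the 4 AHR KO libraries (0.30 to 0.42, adjusted p = 0.09 to 0.246). With the trend removed neither gene was called, and 1 other gene of the list was called lower in each genotype. Herpud1 was lower in AHR KO than in WT, at -0.28 with DMSO and with FICZ, and the call with DMSO held in 7 of 14 alternatives. Among 7 heat shock genes, Hspa1a (0.45 and 0.55) and Hspa1b (0.48 and 0.44), whose near-identical copies share reads so that the split between them is uncertain, were higher with FICZ in WT and AHR KO. Hsp90aa1 (-0.50 and -0.36) was lower, as were Hsph1 (-0.34) and Hspa8 (-0.24) in WT. The calls of Hsph1 and Hspa8 held in 6 and 9 of 17 alternatives, with changes of -0.49 to -0.20 and -0.27 to -0.12. With the trend removed Hsp90aa1 in WT (-0.35, adjusted p = 0.00485) was the 1 change with FICZ still called in this list. Hspb1 was higher in AHR KO by 1.33 ± 0.24 with DMSO and 1.55 ± 0.22 with FICZ.

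Fosb was the 1 member whose log2 values spanned more than 1 over the libraries (1.31). The 3 protein-coding genes whose centred log2 values over the 9 libraries came closest to those of Fosb, of 10577 with a mean of 50 or more, were Herc1, Tnfrsf14 and Mlxip, with mean absolute differences of 0.127, 0.135 and 0.138. All 3 were highest in WT FICZ replicate 1, with 3640, 106.5 and 2207 normalised counts, and each read less in WT FICZ replicate 2 (2545, 43.6 and 1601).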

How the data were processed

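RNA-seq was performed on 9 libraries of mouse colon organoids. The authors deposited a signal that is never negative, normalised counts per Ensembl gene, which need not be whole, so no count model was used and depth in reads is unknown. For the authors' own steps, submitters' processing notes name STAR 2.5.2a, RSEM 1.2.31, DESeq2 1.16.1 and GRCm38, whereas the published methods describe stranded, ribosomal RNA-depleted libraries counted with summarizeOverlaps on mm10; which made the table is not given. Symbols, coordinates and GC content came from GENCODE M21 (GRCm38), to which 99.3% of genes matched.

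From these values log2(value + 1) was computed, and genes averaging at least 10 were fitted with limma 3.58.1 (R 4.3.3, lmFit, eBayes with trend) with the 4 groups as coefficients. Genes with a Benjamini-Hochberg adjusted p under 0.05 over all genes were called, two-sided. Members, lists and tests were chosen with earlier results of these data known, so member counts stand beside the share called over all genes. Named were the 10 members, AHR response genes, and up to 3 called genes per list and direction with the highest and lowest change; a few genes that this rule or a list holds are counted but not reported here by name. Removal of composition effects used natural splines (4 degrees of freedom) on GC content and log2 transcript length in each library. Other alternatives were the pseudocount, filter, scaling, groups fitted, robust eBayes, replicate block and leaving out each library. The main fit and the removal of the trend were tested on simulated data. Libraries of a group differed by a chi-square of 7.26 to 18.1 per gene, so none was a copy.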

Additional observations from a re-analysis of the deposited data

Results flagged for a closer look

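No group held 4 libraries or more, so no single library was tested as standing apart from its group. Of the members and the genes of the lists, those whose change with FICZ differed between WT and AHR KO by the interaction test in limma were Ccn1 (-0.81 on the log2 scale, adjusted p = 0.0222), Ahrr (3.39, adjusted p = 0.01), Tiparp (1.71, adjusted p = 0.000155) and Nqo1 (1.41, adjusted p = 0.000257), out of 57 called over all genes. Tiparp and Nqo1 stayed past the threshold in all 20 alternatives and Ccn1 in 14, with an adjusted p of up to 0.159. Ahrr did so in 15: it read 1.5 in both WT DMSO libraries and 0.0 in both AHR KO DMSO libraries, so that its value depends on the pseudocount, and it was 0.78 (adjusted p = 0.871) with a pseudocount of 0.1. It was also not called with the replicate block (adjusted p = 0.0574), without WT FICZ replicate 1 (adjusted p = 0.0683) or without WT FICZ replicate 3 (adjusted p = 0.0615). Cyp1a1 read at most 5.8 in the 4 DMSO libraries, 6987 to 7958 in WT FICZ and 100.3 and 138.8 in the libraries labelled AHR KO with FICZ.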

How the results depend on the processing

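With 2 or 3 libraries a group, single libraries carry weight. Leaving out each library in turn, the number of members called ranged from 2 to 6 for FICZ in WT, from 2 to 4 for FICZ in AHR KO, was 0 each time for the interaction, and ranged from 0 to 2 for AHR KO against WT with DMSO and from 2 to 4 with FICZ. The calls over all genes moved as well, from 1990 to 4133 (3928 with all libraries), 420 to 1544 (2509), 23 to 78 (57), 389 to 581 (1153) and 1312 to 3084 (2544). For the genes of the other lists the ranges were 19 to 38 (36 with all libraries), 2 to 11 (17), 0 to 2 (1), 3 to 9 (18) and 16 to 37 (31). Without a filter on low values, 1 member (Jun) and 8 list genes were called between genotypes with DMSO.

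Removal of the GC and length trend changed the members called with FICZ in WT from 3 higher (Fos, Junb and Jund) to 2 lower (Fosl1 and Ier2), and left 1 called in AHR KO (Junb), with 2309 and 692 of all genes called. In this fit 19 list genes were called in WT, 5 higher and 14 lower, against 21 and 15 in the main fit. In AHR KO 3 were called, 2 higher and 1 lower, against 14 and 3. The removal turned Jund to -0.03 and Ier2 to -0.22 in WT, and Jund to -0.07 and Ier2 to -0.03 in AHR KO. Rps6ka1 turned to -0.08 in WT and Mrtfa to -0.04 in AHR KO. Together with a replicate block (line fixed) the removal gave 3 members called lower in WT (Fosl1, Egr1 and Ier2) and 0 called in AHR KO, with 1715 and 529 of all genes called. That fit called 16 list genes in WT (6 higher and 10 lower), 3 in AHR KO and 0 in the interaction. It put Jund at -0.03, Egr1 at -0.21, Ier2 at -0.24 and Rps6ka1 at -0.06 in WT. In AHR KO Jund was at -0.07, Ier2 at -0.03 and Mrtfa at -0.04. The cause was not tested. Of 820 alternative values of members, 25 kept their direction and lost a call, 13 kept it and gained one, and 9 changed sign and lost or gained a call, while some values that were called in neither fit also changed sign when a library was left out (Atf3 with FICZ in WT, for example, went from -0.13 to 0.07 without WT DMSO replicate 2).

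The replicate block (line fixed) alone gave 3 members called in WT and 5 in AHR KO, where Egr1 was added (0.20, adjusted p = 0.0353), with 3138 and 2417 of all genes called. With the line as a random effect 4 were called in WT, where Fosb was added (0.67, adjusted p = 0.0484), and 4 in AHR KO, with 4104 and 2748 of all genes. Libraries with the same number correlated in their deviations from the group means at 0.0346 to 0.0498. Each of the 8 with a partner correlated best with its own number. In a group of 2 the deviations of the libraries are exact opposites, so these 8 outcomes are not independent of each other. They cannot settle whether libraries with the same number belong together. Depth in reads is unknown, and Fosb, Atf3 and Fosl1, with means of 388, 155 and 248 normalised counts, had the widest intervals.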
